A study of Mus musculus with 2 samples.

Results

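The 7 genes described here encode homeodomain transcription factors that pattern the midbrain: Otx1, Otx2, Gbx1, Gbx2, En1, En2 and Dmbx1. They were taken by name. Each name was matched through GENCODE M21 to a gene identifier in both libraries, and all 7 were found among 43346 gene rows. RNA came from the midbrain of mouse embryos at 12.5 days (strain B6NCrl, healthy, male and female embryos together). The 2 libraries formed 1 group, with 120 embryos pooled for replicate 1 and 88 for replicate 2. Both used 10 ng of RNA over 200 nt, extracted with mirVana, and both carried added spike-in RNAs. The libraries are labelled as total RNA, and the labels link a manual of the SMARTer low-input kit. The labels name no genetic change and no agent, so the only comparisons were among the 7 genes, among their transcripts, and between the pools. A pool averages over its embryos, so the spread between single embryos was not measured.

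The midbrain is laid out along the head-to-tail axis by factors that oppose each other. Otx2 is made in the forebrain and midbrain and Gbx2 in the anterior hindbrain, and each restrains the other, which sets the position of the isthmus, the signalling centre at the midbrain-hindbrain boundary. The isthmus secretes Fgf8 and Wnt1, and En1 and En2 are expressed on both sides of it and are needed for midbrain and cerebellar growth. Otx1 acts beside Otx2 in the midbrain, Dmbx1 is an Otx-related repressor of midbrain progenitors, Gbx2 is also known from the embryonic thalamus, and Gbx1 is known from the hindbrain and spinal cord.

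The third helix of the homeodomain lies in the major groove of DNA, and the residue at position 50 of the domain is known to set which bases are preferred after the shared TAAT core. Otx proteins and Dmbx1 belong to the class with lysine there, which prefers TAATCC, and Gbx and Engrailed proteins to the class with glutamine, which prefers TAATTA and related sites. The 27 bases below code for part of that helix in the most abundant coding transcript of each gene. They are shown because the codon for position 50, in capitals, divides the set. They were read 5′ to 3′ from the GENCODE M21 transcripts.
Otx1: tggttcAAGaaccgccgcgccaagtgc
Otx2: tggtttAAGaatcgaagagctaagtgc
Dmbx1: tggtttAAGaaccgcagggccaagttc
Gbx1: tggtttCAGaaccgccgggccaagtgg
Gbx2: tggttcCAGaaccgccgggccaagtgg
En1: tggttcCAAaacaagcgtgccaagatc
En2: tggttcCAGaacaagcgggccaaaatc
The codon was AAG in Otx1, Otx2 and Dmbx1, CAG in Gbx1, Gbx2 and En2, and CAA in En1. Over the whole 180-base homeobox, Otx1 and Otx2 were identical at 80.0% of bases, Gbx1 and Gbx2 at 84.4%, and En1 and En2 at 83.3%. Dmbx1 was identical to Otx1 at 123 of the 180 bases and to Otx2 at 108. The longest identical run between transcripts of any pair of the 7 genes was 45 bases, between Otx1 and Dmbx1. The deposited effective lengths imply a fragment or read length of 100 bases, which is longer than that run.

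At this stage the 7 genes differed widely in abundance, with Otx2 far above the others. Values are deposited TPM, an abundance corrected for transcript length and library size that can be compared between genes. The order of the means was Otx2, Otx1, Gbx2, Dmbx1, En1, En2 and Gbx1. Otx1 and Gbx2 could not be ordered, because the range of one over the libraries contained that of the other. The remaining neighbours in the order had library values and deposited TPM intervals that did not overlap. Of the 7 genes, 6 were at 1 TPM or more in both libraries, and Gbx1 was the exception.

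**Figure D1:**
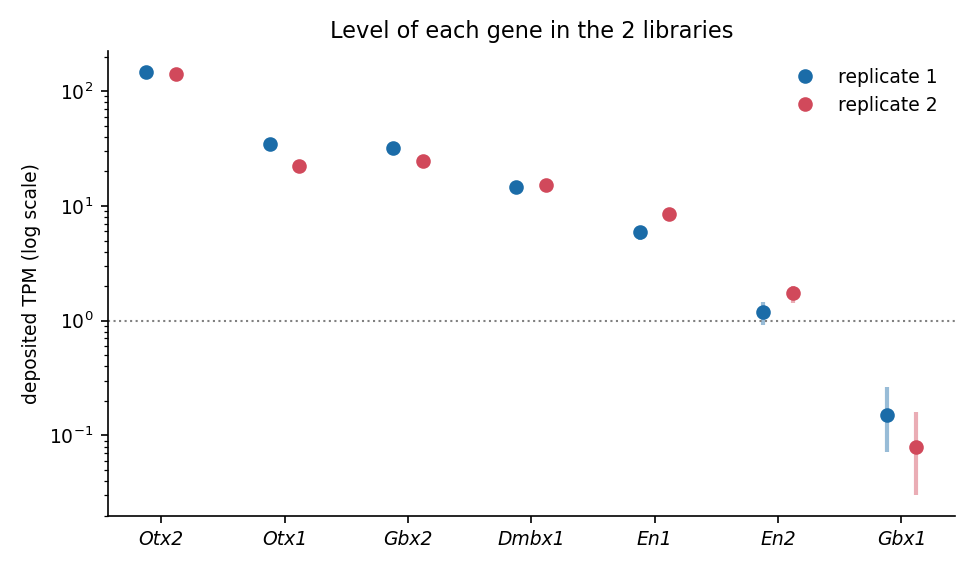
Deposited TPM of the 7 genes on a log scale, in replicate 1 (blue) and replicate 2 (red), with the deposited TPM intervals as bars and a dotted line at 1 TPM. Otx2 stood highest at 146.55 and 141.78 TPM, Otx1 and Gbx2 overlapped, and Gbx1 lay under the line in both libraries.

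Otx2, which the forebrain and midbrain need to form and which marks the midbrain side of the boundary, lies on chromosome 14 (mm10, 48657677 to 48673819, minus strand; ENSMUSG00000021848). Replicate 1 gave 146.55 TPM and replicate 2 gave 141.78 TPM, from 4599 and 5621 estimated counts. Both values were high and near each other, and their deposited intervals (137.5 to 147.5 and 134.2 to 142.9 TPM) overlapped. The mean was 144.2 ± 3.37 TPM (SD, n = 2), above 92.0% of the 13202 protein-coding genes at a mean of 1 TPM or more. Otx2 alone made up 62.4% and 66.3% of the summed TPM of the 7 genes.

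Otx1, the second Otx gene, lies on chromosome 11 (21994764 to 22002897, minus strand; ENSMUSG00000005917). Replicate 1 gave 34.42 TPM and replicate 2 gave 22.11 TPM, from 1776 and 1447 estimated counts. The first pool was higher, and the deposited intervals (31.8 to 35.2 and 20.5 to 22.9 TPM) did not overlap. Its mean was 28.3 ± 8.70 TPM, above 58.1% of the same protein-coding genes. The ratio of Otx2 to Otx1 in TPM was 4.26 in replicate 1 and 6.41 in replicate 2.

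Gbx2, the factor on the hindbrain side of the boundary, lies on chromosome 1 (89927956 to 89931179, minus strand; ENSMUSG00000034486). Replicate 1 gave 31.79 TPM and replicate 2 gave 24.69 TPM, from 1051.09 and 1025.19 estimated counts. The first pool was again higher, and the intervals (28.5 to 33.0 and 22.3 to 26.0 TPM) did not overlap. The mean was 28.2 ± 5.02 TPM, so the Otx2 transcript level was 4.61 and 5.74 times that of Gbx2 in the 2 libraries. Gbx2 was the one gene of the 7 whose gene-level count was partly assigned by the model, with posterior SDs of 6.16 and 6.76 counts. In bulk tissue, fewer cells of a type and less RNA per cell cannot be told apart, so these levels do not separate a small hindbrain or thalamic part from low expression.

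Gbx1, the second Gbx gene, lies on chromosome 5 (24502757 to 24527202, minus strand; ENSMUSG00000067724). Replicate 1 gave 0.15 TPM and replicate 2 gave 0.08 TPM, from 9 and 6 estimated counts. Both values were low, and the intervals overlapped. Gbx2 exceeded Gbx1 by 212-fold and 309-fold in TPM, ratios that rest on these few Gbx1 counts.

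En1, a repressor needed for the midbrain and cerebellum and later for dopaminergic neurons, lies on chromosome 1 (120602418 to 120607992, plus strand; ENSMUSG00000058665). Replicate 1 gave 5.90 TPM and replicate 2 gave 8.49 TPM, from 264 and 480 estimated counts. Here the second pool was higher, and the intervals (5.04 to 6.42 and 7.55 to 9.03 TPM) did not overlap. The mean was 7.20 ± 1.83 TPM, above 24.8% of the protein-coding genes compared. En2, its paralogue, lies on chromosome 5 (28165694 to 28172166, plus strand; ENSMUSG00000039095) and measured 1.20 TPM in replicate 1 against 1.73 TPM in replicate 2, from 73 and 133 estimated counts. The En2 value was larger in the second pool, but its intervals overlapped. The ratio of En1 to En2 was 4.92 in replicate 1 and 4.91 in replicate 2.

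Dmbx1, the Otx-related midbrain repressor, lies on chromosome 4 (115915119 to 115939926, minus strand; ENSMUSG00000028707). Replicate 1 gave 14.66 TPM and replicate 2 gave 15.09 TPM, from 1027 and 1332 estimated counts. The values were close and their intervals overlapped, with a mean of 14.9 ± 0.304 TPM. Otx2 was 10.0 times as abundant as Dmbx1 in replicate 1 and 9.40 times in replicate 2.

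Between the pools, Otx1 was 1.59-fold lower in replicate 2. Gbx2 was 1.32-fold lower and En1 1.41-fold higher, both under the 1.5-fold needed for a call, and Otx2 and Dmbx1 differed by 1.06-fold or less. The comparison used a two-sided exact binomial test on rounded counts, scaled by TMM and adjusted by Benjamini-Hochberg over all genes tested. Calling a gene needed a mean TPM of 1 or more, a difference of 1.5-fold or more and an adjusted p below 0.05. With 1 library per pool it compares the reads of these libraries, not conditions, and its intervals cover counting error only. By this rule 3.55% of 15199 genes were called, 1.41% lower and 2.14% higher in replicate 2, and of the 6 genes of the set that could be called, 1 was, Otx1.

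Otx1 was 1.59-fold lower in replicate 2 (95% interval 1.48 to 1.70; log2 ratio -0.66; adjusted p = 1.16e-36 by the exact binomial test). With the edgeR negative binomial test, which allows for a common spread between libraries, the adjusted p was 0.0577 and the call was lost. That spread was estimated over genes from these same 2 libraries. It therefore includes the difference between the pools and is no independent measure of spread between replicates. The 1.5-fold threshold lay inside its counting interval.

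Gbx2 was 1.32-fold lower in replicate 2 (log2 ratio -0.41, interval -0.53 to -0.28; adjusted p = 5.08e-09 by the exact binomial test). En1 was 1.41-fold higher (log2 ratio 0.49, interval 0.27 to 0.72; adjusted p = 8.29e-05). En2 had the same log2 ratio of 0.49 with a wider interval of 0.07 to 0.93, and its adjusted p was 0.0778. The fewer counts of En2 gave the wider interval.

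Otx2 had a log2 ratio of -0.08 (interval -0.14 to -0.02; adjusted p = 0.0281 by the exact binomial test). Dmbx1 had a log2 ratio of 0.01, with an interval of -0.11 to 0.12, which is a ratio of 0.925 to 1.09. Gbx1, at 15 counts over both libraries, had a log2 ratio of -0.92 with an interval of -2.73 to 0.70, and no difference was detectable at that depth. At an adjusted p under 0.05 with no threshold of ratio, 4 genes passed (Otx1, Otx2, Gbx2 and En1), where 26.4% of all tested genes did. None of the 7 passed by the negative binomial test, where the adjusted p was 0.681 for Gbx2 and 0.536 for En1.

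**Figure D2:**
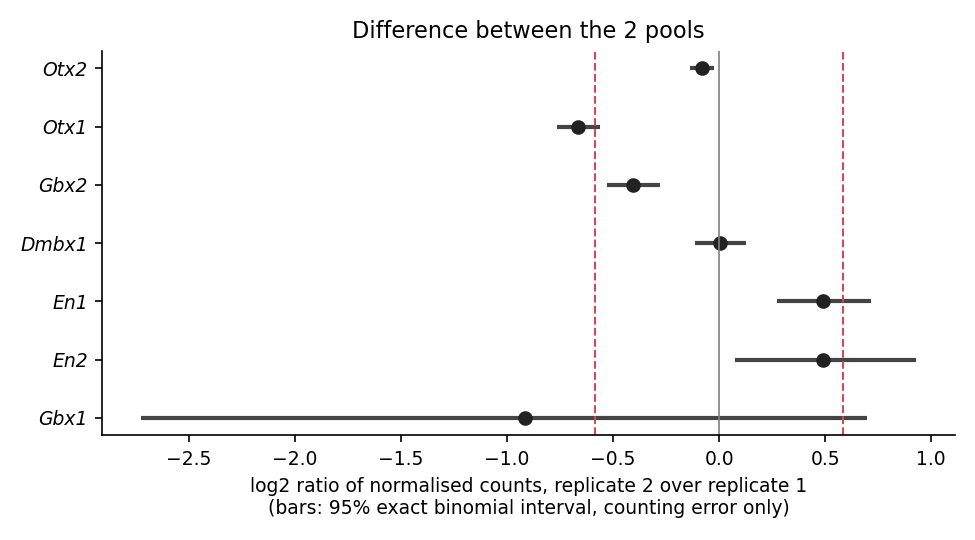
Log2 ratio of normalised counts, replicate 2 over replicate 1, for each gene, with 95% exact binomial intervals and dashed lines at 1.5-fold either way. Otx1, at -0.66, lay past the lower line, the Engrailed genes sat together at 0.49, and Otx2 and Dmbx1 lay near 0.

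The spread of other genes gives a scale for these ratios. Among 7181 genes with a mean count of at least 1000, the SD of the log2 ratio was 0.14, and Otx1 and Gbx2 lay beyond 2 such SDs while Otx2 and Dmbx1 lay within 1. Among 5665 genes with a mean count of 100 to 1000 the SD was 0.38, and En1 and En2 lay between 1 and 2 SDs from 0. Gbx2, at 1051.09 and 1025.19 estimated counts, was at the lower edge of the deeper group. Set against the SD of 0.38, its log2 ratio of -0.41 would also lie between 1 and 2 SDs from 0. Depth was 28212923 and 36082643 estimated counts on genes, and spike-ins took 4.14% and 3.48% of all counts.

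The transcripts of Otx2 differ in their first exon and in the acceptor site of one coding exon. The longer exon adds 24 bases (chr14:48661451-48661474, minus strand in mm10) to the coding sequence, which is 8 whole codons with no stop codon. The added bases enter after 97 coding bases, within 5 codons of the homeobox, and lengthen the part of the protein just before the DNA-binding domain. Both versions are printed from the GENCODE M21 transcripts, with the added bases in capitals, because the 2 most abundant transcripts of this gene differ in them.
Otx2-202, longer: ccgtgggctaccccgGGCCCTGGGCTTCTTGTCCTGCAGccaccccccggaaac
Otx2-201, shorter: ccgtgggctaccccgccaccccccggaaac
The longer version held 27.06% of Otx2 abundance in replicate 1 and 29.70% in replicate 2, a mean of 28.4% ± 1.87 (SD, n = 2). The libraries were close, and the shorter version made up most of Otx2 in both. Otx2-201 and Otx2-202 also differ in their first exons and in the end of their last exon. Their shares are model estimates over whole transcripts, so they do not measure use of the acceptor site alone. The posterior SD of the Otx2-202 count was 62.3 on 1130.31 counts and 68.7 on 1517.65 counts.

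Otx2 had 8 annotated transcripts in the deposited files, of which 4 reached 5% of the gene in either library. Otx2-201 took 54.82% and 53.93%, Otx2-202 27.06% and 29.70%, Otx2-205 8.01% and 7.22%, and Otx2-208 5.07% and 4.80%. The order was the same in both libraries. By first exon, the middle start used by Otx2-201 gave 54.82% and 53.93%. The 4 transcripts with the farthest upstream starts among these 8 gave 40.14% and 41.72% together. In GENCODE M21 the gene reaches 48673819, upstream of 48667644, the most upstream start of the 8, and transcripts starting there have no share here. The other starts gave 5.05% and 4.35%. Otx2-207 was listed at 0 in both.

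**Figure D3:**
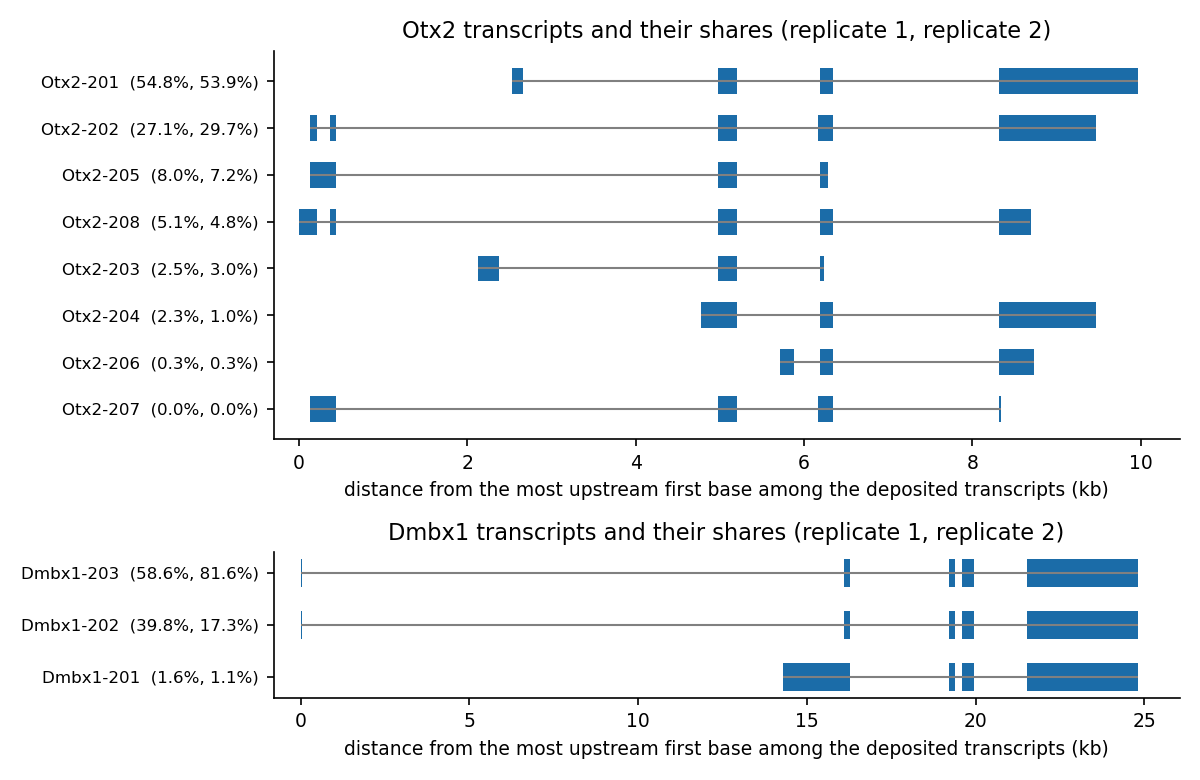
Exons (boxes) of the Otx2 and Dmbx1 transcripts by distance in kb from the most upstream first base among the deposited transcripts of each gene. The share of each transcript in replicate 1 and replicate 2 is given beside its name. Otx2-201 starts downstream of the first exons of Otx2-202, Otx2-205, Otx2-207 and Otx2-208, and Dmbx1-202 and Dmbx1-203 differ in the length of an inner exon.

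RefSeq windows on GRCm38.p6, from 250 bases before to 50 after an annotated start, were at hand for 4 of the 7 genes (Otx2, Gbx2, En1 and Dmbx1), 7 windows in all. They were searched on both strands for TAATCC, whose reverse complement is GGATTA. The second motif searched was TAATTA, which reads the same on both strands. Of 32817 windows of the same length, 7.06% held TAATCC and 5.30% held TAATTA. Otx2 had 4 windows. The window whose first base is 48665109, beside the start of Otx2-201, held 1 TAATCC and 3 TAATTA, and that whose first base is 48667644 held 1 TAATTA. The windows of Gbx2, En1 and Dmbx1 and the other 2 of Otx2 held neither. GC content was 64.7%, 57.0% and 66.7% in the windows of Gbx2, En1 and Dmbx1, and 41.7% to 53.7% in those of Otx2. Both motifs hold more A and T than G and C, and the shares over all windows were not matched for GC content. The 5 matches are printed with 12 bases on each side and the motif in capitals, because they include both motifs that the classes of this set prefer. A match is a description of these letters and does not show that a factor binds.
Otx2 upstream start, chr14:48667768-48667797: tgtccatcatttTAATTAtacaattagttc
Otx2 middle start, chr14:48665326-48665355: cacgacggcctgTAATTAagggacgtgtgc
Otx2 middle start, chr14:48665303-48665332: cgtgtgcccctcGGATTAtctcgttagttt
Otx2 middle start, chr14:48665266-48665295: aaacatttattaTAATTAattctcggacga
Otx2 middle start, chr14:48665246-48665275: tctcggacgaggTAATTAttattgagcgag
All are given on the minus strand, 5′ to 3′. The motifs of the middle start began 234, 211, 174 and 154 bases before its first base, and the upstream one 141 bases before its own. Otx2-201 was 140 bases longer in the deposited files than in GENCODE M21, and where those bases lie is not given in the sources used here.

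Dmbx1 also has a coding exon of 2 lengths. The longer adds 15 bases (chr4:115920712-115920726, minus strand), 5 whole codons without a stop codon, after 154 coding bases and within 14 codons of the homeobox. In Dmbx1 as in Otx2, the optional codons thus come before the DNA-binding domain. The versions are printed because they are the 2 main forms of the gene, with the added bases in capitals.
Dmbx1-202, longer: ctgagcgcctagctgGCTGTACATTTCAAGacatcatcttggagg
Dmbx1-203, shorter: ctgagcgcctagctgacatcatcttggagg
The longer form held 39.75% of Dmbx1 in replicate 1 and 17.26% in replicate 2, and Dmbx1-203 held 58.60% and 81.62%. The longer form was thus lower in the second pool while the level of the gene was nearly equal. The deposited TPM intervals of Dmbx1-202 (2.24 to 8.26 and 1.59 to 4.54 TPM) overlapped, as did those of Dmbx1-203 (5.58 to 11.7 and 9.92 to 13.2 TPM). The forms differ by 15 bases within the coding sequence, and the posterior SD of the Dmbx1-202 count was 108 on 406.06 counts and 68.9 on 229.40 counts. The third transcript, Dmbx1-201, held 1.65% and 1.12%.

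Otx1 was mostly 1 coding transcript, Otx1-201, at 89.09% and 88.22%. A transcript annotated as a retained intron, Otx1-203, held 9.83% and 10.43%, or 3.38 and 2.31 TPM. The lower level of Otx1 in replicate 2 was seen in both transcripts, since their deposited intervals did not overlap between the libraries (28.0 to 31.3 and 17.8 to 20.1 TPM for Otx1-201, 2.82 to 3.77 and 1.91 to 2.61 TPM for Otx1-203). Their shares stayed within 1 percentage point.

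Gbx2-201, the coding transcript, held 81.48% and 80.03% of Gbx2. Gbx2-202, a single-exon entry annotated as a retained intron, held 18.52% and 19.97%, with wide intervals of 2.65 to 8.61 and 2.34 to 7.47 TPM. Its bases lie within the gene, and its count had a posterior SD of 29.8 on 116.92 and 32.5 on 123.83. Gbx1, En1 and En2 had 1 annotated transcript each, so no share could be measured.

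**Figure D4:**
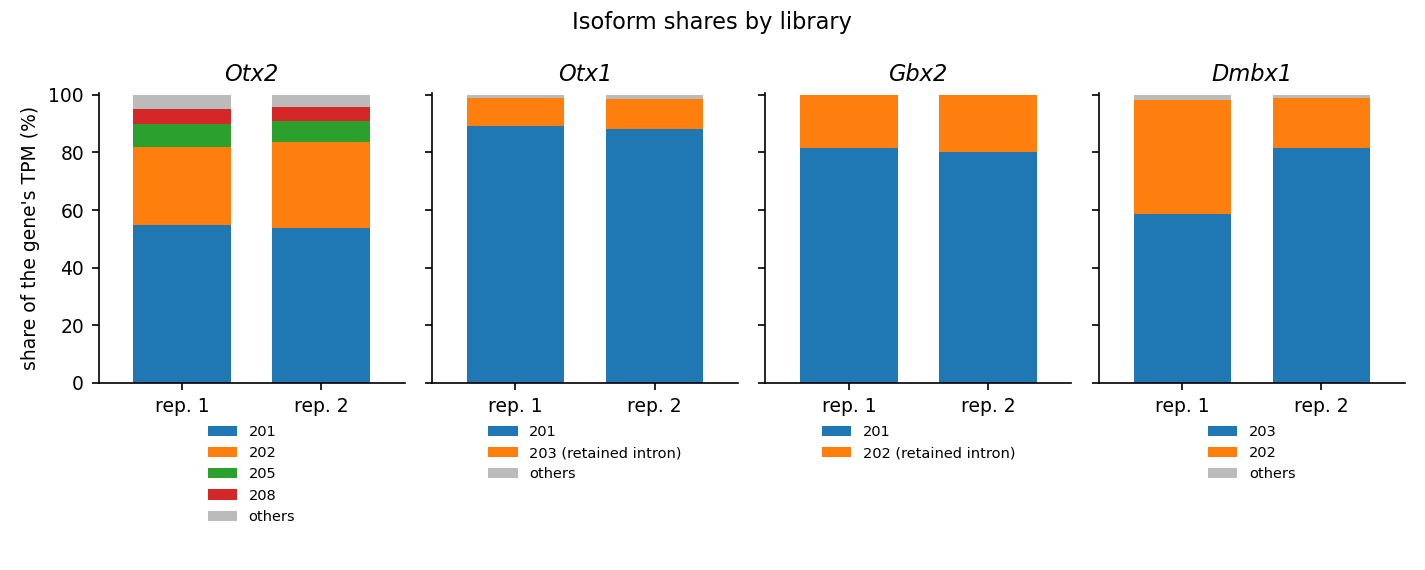
Share of each gene's TPM, in percent, taken by its transcripts in replicate 1 and replicate 2, for the 4 genes with more than 1 transcript; transcripts under 5% in both libraries are summed as others. The bars of Otx2, Otx1 and Gbx2 lay close between libraries, while Dmbx1-203 was at 58.60% and 81.62%.

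Some reads of these loci could belong to overlapping genes, since no statement on strand is given in the sources used here. Otx2os1, a long non-coding RNA on the opposite strand, overlaps the span of Otx2 in GENCODE M21 and was at 12.65 and 10.87 TPM. Its span starts at 48668708, upstream of the most upstream Otx2 start in the deposited files, 48667644, so it shares no bases with those Otx2 transcripts. D130058E05Rik, on the opposite strand across Gbx2, was at 1.77 and 1.74 TPM. Reads from overlapping exons of such pairs cannot be told apart without strand. A further 2 overlapping entries of GENCODE M21, Gm49154 at Otx2 and Gm43610 at En2, were not analysed here.

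Of 5 isthmus signals, 1 was called higher and 2 lower in replicate 2, with a median log2 ratio of -0.48 beside -0.00106 over all 15199 genes tested. Fgf17 was at 6.33 and 11.08 TPM and was called higher, while Wnt1 (10.55 and 7.17 TPM) and Fgf8 (4.58 and 3.55 TPM, from 77 and 62 counts) were called lower. The Fgf8 call rests on the normalised counts (log2 ratio -0.68), and its deposited TPM intervals overlapped. Fgf15, the most abundant of them, was at 68.57 and 50.35 TPM and was not called.

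Of 10 other transcription factors and markers of the isthmus and midbrain, 9 were at a mean of 1 TPM or more, 2 were called higher and 0 lower (median log2 ratio 0.33). The called genes were Cnpy1, an isthmus gene of FGF signalling (77.67 and 121.60 TPM), and Pax8, a paired-box factor (2.29 and 3.88 TPM). The other abundant members were Meis2 at 68.6 ± 10.5 TPM, Pax3 at 47.1 ± 5.59 TPM and Sp5 at 17.4 ± 3.68 TPM. By the negative binomial test the adjusted p was 0.112 for Cnpy1, 0.0568 for Pax8, 0.0596 for Fgf17, 0.246 for Wnt1 and 0.586 for Fgf8, and none of these 5 calls held.

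No gene was called among 11 FGF receptors and feedback genes or 11 measured cofactors. The highest of the receptors and feedback genes were the receptors Fgfr2 (81.8 ± 0.396 TPM), Fgfr3 (62.5 ± 11.8 TPM) and Fgfr1 (54.9 ± 4.84 TPM), and the inhibitor Spry2 (20.1 ± 1.25 TPM). Cofactors are proteins that Engrailed, Otx and Gbx factors bind, such as Groucho-type corepressors and Pbx proteins. Among the highest were Meis3 (101.8 ± 4.53 TPM), Pbx3 (63.3 ± 2.64 TPM) and the corepressor Tle3 (55.9 ± 2.47 TPM), each above every gene of the set but Otx2 in TPM.

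All 8 relatives of the set, chosen from homeobox genes of related classes, were lower than Otx2. Crx, the third Otx-class gene and a factor of photoreceptors, was at 0.46 and 0.76 TPM. Of 8 relatives, 6 were at a mean of 1 TPM or more and 1 was called, Alx1, a gene of head mesenchyme (3.07 and 8.85 TPM, higher). Alx4 was at 4.06 ± 0.926 TPM and Pitx3, a factor of dopaminergic neurons, at 3.29 ± 0.0283 TPM.

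Markers of neighbouring regions and tissues were read beside the 7 genes, as the label names midbrain alone and several of these genes are also known outside it. Of 9 hindbrain markers, 8 were under 1 TPM in both libraries, with Hoxb4 at 0, Hoxb2 at 0.31 and 0.13 TPM and Egr2 at 0.20 and 0.21 TPM. The summed level of the list was 7.97 and 8.71 TPM, so Gbx2 at 31.79 and 24.69 TPM stood above all the hindbrain markers together. Of 6 cerebellar and rhombic lip markers, 1 was called, Atoh1, a gene of rhombic lip progenitors (0.74 and 2.20 TPM, higher). Lhx5 (40.6 ± 3.27 TPM), Barhl1 (32.6 ± 7.97 TPM) and Zic1 (11.8 ± 2.86 TPM) were not called, and the summed level of the list was 96.1 and 78.9 TPM. Most of that sum came from Lhx5, Barhl1 and Zic1, each with the lower value in replicate 2. Ptf1a (0.36 and 1.46 TPM) and Skor2 (0.02 and 0.15 TPM) were higher there, as Atoh1 was. Their means were under the 1 TPM needed for a call.

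Of 8 thalamic and caudal diencephalic markers, 3 were called lower in replicate 2 and 0 higher (median log2 ratio -0.17), and their summed level was 731.7 and 521.1 TPM. Olig3, a progenitor gene of the thalamus, was at 52.91 and 9.26 TPM, Barhl2 at 12.54 and 6.91 TPM and Tcf7l2 at 443.67 and 282.81 TPM. Lef1 (84.1 ± 1.83 TPM), Lhx9 (78.8 ± 8.15 TPM) and Foxp2 (38.64 and 50.37 TPM, the larger value in replicate 2) were not called. Most of the difference in the summed level came from Tcf7l2. No marker of the list was at 0. Their part in the values of Gbx2 and Otx1 was not tested.

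Of 12 forebrain markers, 11 were at a mean of 1 TPM or more, 4 were called lower and 1 higher, with a summed level of 250.4 and 193.3 TPM and none at 0. Emx1 (6.36 and 2.74 TPM), Tbr1 (3.24 and 1.26 TPM), Nkx2-1 (7.48 and 4.29 TPM) and Dlx1 (48.18 and 30.63 TPM) were called lower, on the same side as Otx1. Lhx2 (98.9 ± 11.3 TPM), Six3 (18.3 ± 2.79 TPM) and Emx2 (19.12 and 14.82 TPM) were not called. Of 6 choroid plexus markers, 3 were called lower, Ttr (38.70 and 13.79 TPM), Clic6 (3.72 and 1.28 TPM) and Kcne2 (2.16 and 0.32 TPM), and 1 higher, Aqp1 (4.00 and 6.52 TPM). Folr1 was at 5.39 and 9.76 TPM, and the summed level of the list was 54.3 and 32.2 TPM. Otx2 is known from the choroid plexus as well, and the part of these regions and tissues in the Otx values was not tested. By the negative binomial test the adjusted p was 0.0671 for Dlx1 and 0.171 for Aqp1, and the other calls named in this paragraph held.

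Of 9 floor plate and dopaminergic genes, 8 were at a mean of 1 TPM or more, 3 were called higher in replicate 2 and 0 lower (median log2 ratio 0.39), and the summed level was 88.9 and 128.5 TPM. The called genes were Foxa2, a floor plate factor (5.36 and 11.54 TPM), Th, the rate-limiting enzyme of dopamine synthesis (13.08 and 23.51 TPM), and Corin, a floor plate protease (2.54 and 7.66 TPM). Nr4a2 (27.2 ± 2.69 TPM), Ddc (18.4 ± 4.63 TPM) and Lmx1a (14.3 ± 2.51 TPM) were not called. Mesenchyme and skin markers had higher values in replicate 2 in 6 of 6 cases with 0 called (median log2 ratio 0.48), and their summed level was 848.3 and 1209.9 TPM. The highest were Col3a1 (398.84 and 568.58 TPM), Col1a1 (326.19 and 469.23 TPM), Lum (105.29 and 148.94 TPM) and Twist1 (8.93 and 10.18 TPM). The part of these cells in the Engrailed values was not tested. All 5 measured eye markers, for a tissue where Otx2 and Crx are also expressed, were under 1 TPM in both libraries, the highest being Pmel at 0.72 and 0.95 TPM, with Mlana at 0 and 0.17 TPM and Tyr at 0.04 and 0.10 TPM.

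**Figure D5:**
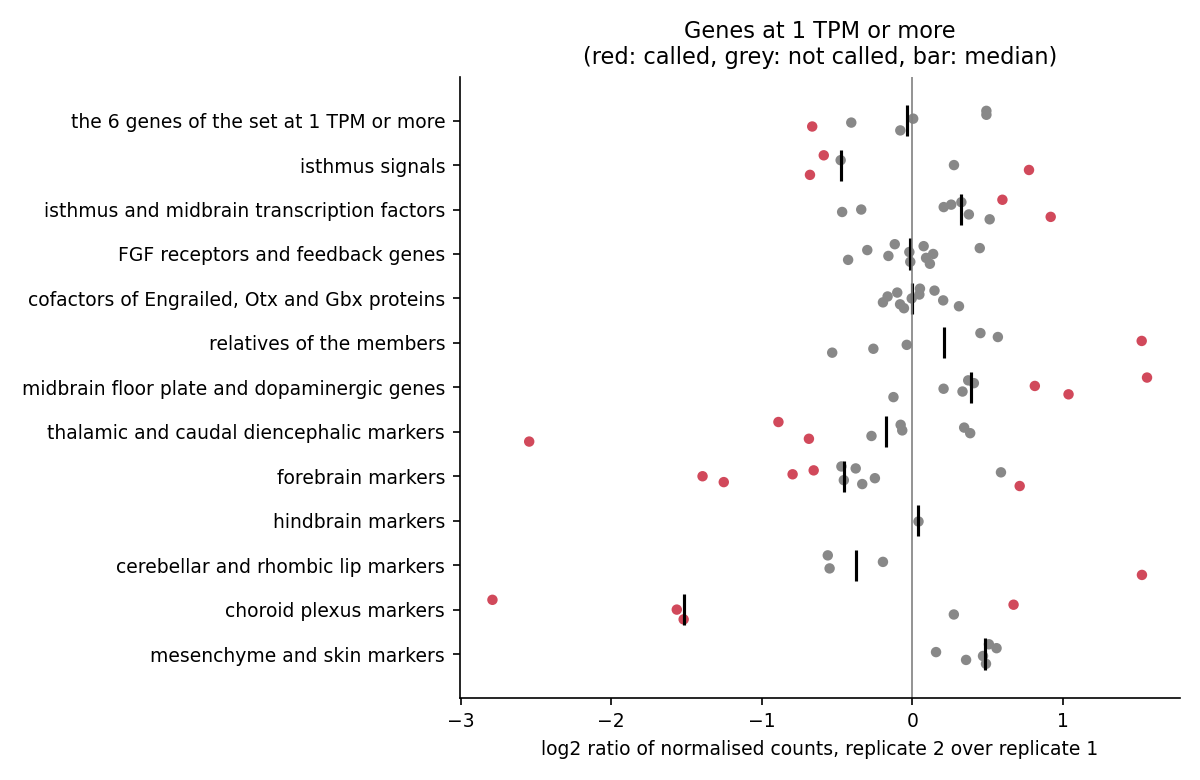
Log2 ratio of normalised counts, replicate 2 over replicate 1, for the genes of the set and of each list at a mean of 1 TPM or more, with called genes in red, genes not called in grey and the list median as a bar. The 6 genes of the set run from -0.66 (Otx1) to 0.49 (En1 and En2), and the choroid plexus list has the lowest median, -1.52.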

How the data were processed

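Gene expression was deposited for 2 libraries of mouse midbrain. The authors' expected counts, given for genes and for transcripts, are model estimates in the layout of RSEM, per the file headers. TPM values, their intervals and posterior means were deposited beside them. The deposited isoform percent gives how much of a gene's TPM falls to each transcript. The notes deposited with the files name GENCODE M4 on mm10; the aligner is not given in the sources used here. Names, coordinates and transcript structures came from GENCODE M21, where 42462 of 43346 gene identifiers matched. Library sizes and tests used genes only, without 97 spike-ins and 26248 numbered features.

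Counts were rounded, scaled by TMM (0.995 and 1.005; edgeR 4.0.16, R 4.3.3) and compared by the exact binomial test for genes with at least 10 counts summed. Log2 ratios had 0.5 counts added. The labels number the libraries as biological replicates from separate pools. On simulated counts for the pool comparison, 88.0% of 2-fold and 97.0% of 4-fold differences were recovered, over 18963 genes tested. The simulated counts held counting error only, with no further spread between libraries. They therefore cannot show how often the rule calls genes through such spread. Alternatives were DESeq2 1.42.0 size factors, total counts, the edgeR negative binomial test, other thresholds and pseudocounts, posterior means, TPM rescaled over nuclear protein-coding genes, CPM, and each library alone. Scripts ran in Python 3.11.15.

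The members and the 13 gene lists were chosen with earlier results of these data known. Named genes were the 7 members, their transcripts at 5% or more, overlapping genes, and from each list the 4 highest by TPM and all those called. Some genes taken by this rule are not named. Tle5 and Rax2 were not analysed here.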

Additional observations from a re-analysis of the deposited data

How the results depend on the processing

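Otx1 was called with every choice of size factor, count filter, TPM threshold, pseudocount and posterior mean counts that was run. The number of the 7 genes called was 1, but 0 by the edgeR negative binomial test, 0 at a threshold of 2-fold and 4 with no threshold of ratio; of the listed genes, 22 were called and 14 by the negative binomial test. Over all genes the calls were 539, but 201 by that test, 4009 with no threshold of ratio, 214 at 2-fold and 835 at a mean of 0.1 TPM. In the order of the genes, 2 places moved with CPM, which does not divide by length: Dmbx1 (36.7 CPM) then stood above Gbx2 (32.9 CPM). With posterior mean TPM, Otx2 was at 140.6 and Dmbx1 at 14.5 TPM. Rescaled over nuclear protein-coding genes, Otx2 was at 182.4, Gbx2 at 35.8, Dmbx1 at 18.8, En1 at 9.08 and En2 at 1.85 TPM. With either library alone, the levels are the values of that library given above. No paired analysis was possible because the 2 libraries form 1 group. Counting error and a single ratio per gene limit what the pools can show, most of all for Gbx1 and En2.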

Other observations

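Genes within 50 kb of each of the 7 genes were read for their values, which were known when the ones named here were picked. The nearest gene to En1, the long non-coding RNA 2610027F03Rik, lies 13.7 kb away on the same strand. It was at 3.57 and 10.08 TPM, from 30 and 103 estimated counts, and was 2.63-fold higher in replicate 2 (adjusted p = 7.70e-06 by the exact binomial test and 0.00578 by the edgeR negative binomial test). Cnpy1, which is 28.7 kb from En2, was 1.51-fold higher there, a call that is lost by the edgeR negative binomial test (adjusted p = 0.112). Over all genes tested, 2.14% were called higher in replicate 2, and neither Engrailed gene was called.

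At the other 5 loci, 9 neighbours in that window were tested at a mean of 1 TPM or more, and 0 were called by the exact binomial test. Agap1, 30.3 kb from Gbx2, was at 28.70 and 22.50 TPM with a log2 ratio of -0.26 (adjusted p = 2.98e-16 by the exact binomial test, under the 1.5-fold needed), beside -0.41 for Gbx2. Ehbp1, 2.93 kb from Otx1, was at 16.03 and 16.90 TPM with a log2 ratio of -0.07, beside -0.66 for Otx1. Agap3, 0.71 kb from Gbx1, was at 22.19 and 21.01 TPM, where Gbx1 itself was at 0.15 and 0.08 TPM. Gbx2 and En1 share chromosome 1 at a distance of 30.7 Mb, and Gbx1 and En2 share chromosome 5 at a distance of 3.64 Mb. Gbx2 and En1 had log2 ratios of opposite sign.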
